A study of Mus musculus with 61 samples.

Results

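The interferon regulatory factors (IRFs) were followed across 61 mouse RNA-seq libraries as 8 genes, Irf1, Irf2, Irf3, Irf4, Irf5, Irf7, Irf8 and Irf9, chosen by symbol from the 24421 genes counted in each library. All 8 had enough reads to be tested in every comparison below. The study asked how substitutions of a tyrosine of STAT5B, a transcription factor activated by interleukins, change its function. Phenylalanine (Y665F) and histidine (Y665H) at this position were set beside WT STAT5B and beside N642H, a leukaemia-associated substitution of the same protein.

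The labels give the strain as C57BL/6 for all samples and the age as 2 months. The study's methods name C57BL/6N as the strain in which the mutant mice were made. Naive CD4+ T cells, pooled from lymph node and spleen, were activated through the T cell receptor and CD28, transduced with a retrovirus, sorted for the GFP of the vector and grown with IL-2. The vector was empty or encoded STAT5B in its WT, N642H, Y665F or Y665H form. The cells were either WT or from floxed Stat5a/b mice with a Cd4-Cre transgene, which deletes in the CD4 and CD8 lineages, and are called null below. Each of these 10 groups had 3 libraries. The genotype entry of the labels names floxed Stat5a/b for all 30 of them, so the background was read from the titles. Stat5b was at 2.78 to 9.49 CPM in the 3 null libraries with the empty vector and at 187 to 209 CPM in the WT libraries with it, where CPM are counts scaled to library size with TMM factors. In null cells the 4 STAT5B vectors brought Stat5b to group means of 217 to 315 CPM. Reads of the vector and of the locus are not told apart in these counts.

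Splenic T cells, isolated with a kit that depletes other cells, came from WT mice (4 libraries), Stat5b Y665H mice (4) and Stat5b Y665F mice (4) and were cultured with IL-2 and IL-7, and Y665F T cells without these interleukins gave 3 more. The study describes bulk RNA-seq of T cells taken directly after isolation with no added interleukin, but does not name these 3 libraries there. The interleukins and the culture thus cannot be told apart. Spleens, titled splenocytes in the labels, gave 4 WT, 5 Y665H and 7 Y665F libraries. The mutant mice carry the substitution in the germline, so every cell type has it, and the labels do not give the zygosity. The study calls the CD4 replicates biological and independent, but the labels do not say for any group which animal or culture a library came from, and p-values measure the spread between libraries only. The depth of a library, as the sum of its gene counts, was 18825994 to 49850689 for CD4+ T cells, 2017012 to 27394249 for splenic T cells and 24203179 to 43330536 for spleens. In bulk RNA, fewer cells of a type and less RNA per cell cannot be told apart.

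IRFs share a DNA-binding domain that recognises GAAA repeats, as in the interferon-stimulated response element (ISRE). IRF1 activates and IRF2 mostly represses such genes, IRF3, IRF5 and IRF7 are activated downstream of nucleic-acid sensors and induce type I interferon, and IRF9 is the DNA-binding part of the complex that answers it. IRF4 is induced by the antigen receptor and with BATF and JUN drives effector T cell programmes, while IRF8 is best known from dendritic cells, monocytes and B cells. Phosphorylated STAT dimers, including those of STAT5, bind a different motif, the gamma-activated site (GAS).

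The promoters that hold such motifs are shown first, because a GAS is the letter pattern that a STAT dimer reads and the ISRE core is that of the IRFs. Windows of 300 bases (250 before to 50 after a start, RefSeq, GRCm38.p6) were searched on both strands for TTCNNNGAA as GAS and for GAAANNGAAA as ISRE core. All 8 genes had a window, and Irf1, Irf8 and Irf9 had a pair each. A GAS was found in 8.3% of all 32851 windows and an ISRE core in 3.44%. These are shares of windows, whereas the members are counted as genes below, and a gene with a pair of windows is searched in both. Of the 8 genes, Irf1, Irf2 and Irf8 held a GAS and Irf2 also an ISRE core, while the windows of Irf3, Irf4, Irf5, Irf7 and Irf9 held neither pattern. The stretches below are the plus strand, which is the coding strand of these 3 genes, with the motifs in capitals. They lie at chr11:53769884-53769972 for Irf1, chr8:46739495-46739569 for Irf2 and chr8:120736147-120736253 for Irf8.
Irf1: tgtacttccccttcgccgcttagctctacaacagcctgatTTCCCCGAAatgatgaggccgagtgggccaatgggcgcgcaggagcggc
Irf2: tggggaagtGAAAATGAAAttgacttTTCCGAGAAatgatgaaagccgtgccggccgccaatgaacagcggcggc
Irf8: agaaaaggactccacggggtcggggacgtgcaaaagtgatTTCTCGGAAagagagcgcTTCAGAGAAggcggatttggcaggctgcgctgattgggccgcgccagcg
The GAS of Irf1 begins at −90 relative to its start, that of Irf2 at −224 and its ISRE core at −241, and the GAS pair of Irf8 at −171 and −153 relative to its start. In Irf2 the ISRE core does not overlap the GAS. A match of letters is a description of these windows and no measurement of binding.

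The IRF genes differed widely in level. Per length of their exons, Irf4 had the highest level of the 8 in all 10 CD4 groups, at group means of 86.3 to 155 CPM per kilobase, and Irf7 the lowest, at 1.07 to 3.23. In splenic T cells and in spleens Irf1 was the highest instead, at 38.1 to 203 and 45.1 to 54 CPM per kilobase. Across the 10 CD4 groups, the highest group mean was 8.2 times the lowest for Irf1, 5.59 times for Irf8, 3.28 times for Irf2 and 3.02 times for Irf7, but 1.16 times for Irf3. In splenic T cells this ratio was 9.7 for Irf8, and in spleens it was at most 1.51, for Irf7. Most neighbours in the order of group means had overlapping libraries. Among the CD4 groups, a gap between neighbours was seen for Irf2, between null N642H and null STAT5B cells, and for Irf9, between WT N642H and WT STAT5B cells. In splenic T cells it was seen for Irf1, Irf7 and Irf9, between Y665F cells without interleukin and Y665H cells with it, and for Irf4, between stimulated WT and Y665F cells.

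**Figure D1:**
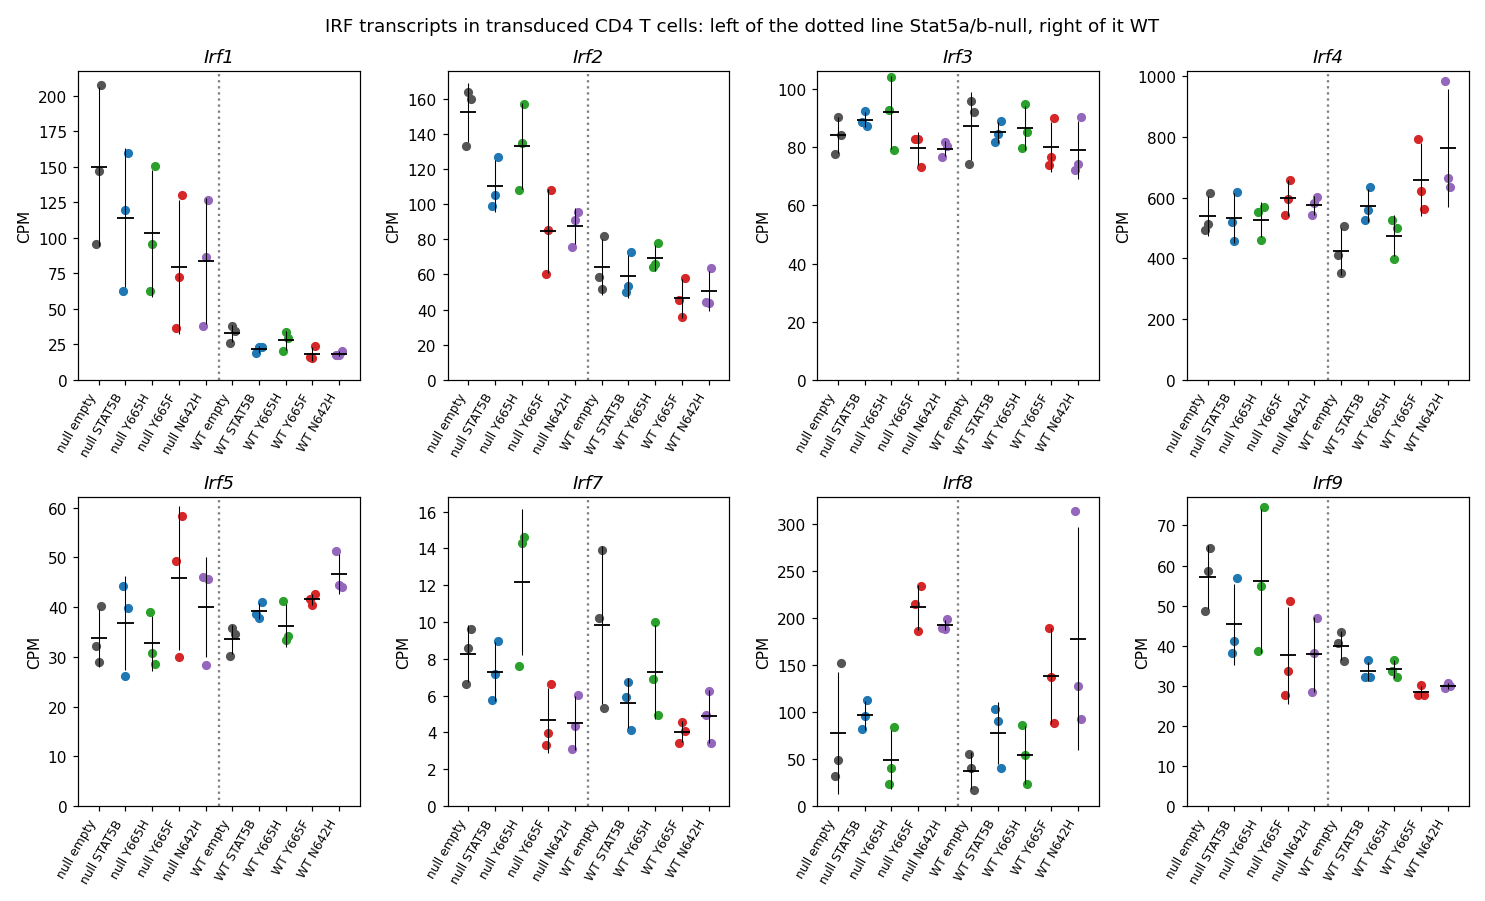
Levels of the 8 IRF transcripts in CD4+ T cells, in CPM on a linear axis from 0, with 1 point per library, a line at the mean and a bar of 1 SD (n = 3 per group). Null cells stand left of the dotted line and WT cells right of it, and Irf1 and Irf2 are higher on the left while Irf8 is highest with Y665F and N642H on both sides.

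The labelled cell type was checked against markers. In each of the 30 libraries, the summed CPM were 3940 to 6220 over 11 T cell markers, 2.53 to 8.92 over 10 B cell markers, 2.78 to 10.8 over 10 monocyte and macrophage markers, 29.4 to 61.1 over 10 dendritic cell markers, 0.116 to 7.33 over 9 neutrophil markers, 1.39 to 5.46 over 8 erythroid markers and 74.9 to 578 over 7 plasma cell markers. The plasma cell sum moved with the constructs in null cells, while in WT cells most groups overlapped. It was 74.9 to 76.2 CPM in null cells with the empty vector, 131 to 172 with STAT5B, 197 to 262 with N642H, 167 to 264 with Y665F and 91.8 to 107 with Y665H, and in WT cells 210 to 357, 258 to 451, 338 to 504, 352 to 578 and 246 to 379 CPM in the same order. Most of it was Xbp1, a factor of the unfolded protein response, at group means of 66 to 465 CPM, while the plasma cell genes Jchain and Mzb1 were at group means of at most 0.187 and 0.146 CPM. Of the 11 T cell markers, 2 were higher and 5 lower with N642H and 2 higher and 4 lower with Y665F than with the empty vector in null cells, and 4 were higher and 2 lower in null than in WT cells with the empty vector. The part of these differences in the results on the IRFs was not tested.

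The response of the family to the STAT5B constructs was first followed in null cells, where the vector is the main source of STAT5. Irf8 was higher and Irf2 lower with Y665F than with the empty vector, and Irf2 was also lower with N642H. With WT STAT5B and with Y665H no member passed. A gene passed with an adjusted p under 0.05 in edgeR's quasi-likelihood test (Benjamini-Hochberg adjustment across the 20113 genes of this fit), and it is called a DEG where its log2 fold change was also beyond 1. All comparisons with the empty vector share its 3 libraries. Null libraries with the same replicate number deviated from their group means together, and values from a fit with that number as a block are given where they change a call.

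Irf8, at 120736358 to 120756694 of chromosome 8 (GRCm38), was at 32.3, 49.4 and 152 CPM in the null libraries with the empty vector. It was at 81.9, 95.8 and 113 CPM with STAT5B, 190, 189 and 199 CPM with N642H, 215, 186 and 234 CPM with Y665F and 23.5, 41.1 and 84.3 CPM with Y665H. Every N642H and Y665F library thus lay above every other null library, the empty-vector library at 152 CPM included. The log2 fold change over the empty vector was 1.41 ± 0.43 (SE, n = 3 per group, adjusted p = 0.0462) for Y665F, a DEG, and 1.27 ± 0.43 (adjusted p = 0.0654) for N642H. With the block, these Irf8 values were 1.66 (adjusted p = 0.000453) and 1.53 (adjusted p = 0.000779). Among the 6 fits without the block that left out a library, the Y665F call on Irf8 held in 1. Without empty-vector replicate 3, the library at 152 CPM, the Irf8 change was 2.36 (adjusted p = 0.000328) for Y665F and 2.21 (adjusted p = 0.000437) for N642H. Without empty-vector replicate 1 or 2 or Y665F replicate 1, 2 or 3, the Y665F change lay between 1.07 and 1.52 and its adjusted p between 0.0809 and 0.192. DESeq2 gave 1.41 for Irf8 with Y665F at an adjusted p of 0.0604.

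Irf2, on chromosome 8 from 46739732 to 46847458, was at 133, 164 and 160 CPM in null cells with the empty vector. Its levels were 98.8, 105 and 127 CPM with STAT5B, 75.8, 90.9 and 95.5 CPM with N642H, 60.3, 85.3 and 108 CPM with Y665F and 108, 135 and 157 CPM with Y665H. The N642H and Y665F libraries lay below all empty-vector libraries, and those with Y665H overlapped them. Irf2 fell by 0.84 ± 0.18 (SE, adjusted p = 0.00529) with N642H and by 0.88 ± 0.18 (adjusted p = 0.00475) with Y665F on the log2 scale, to 0.559 and 0.543 times the empty-vector level. With the block, Irf2 was also lower with STAT5B (log2 fold change −0.47, adjusted p = 0.00567).

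Irf1, the activator of the pair, lies on chromosome 11 from 53770014 to 53778374 and was spread widely within each null group. It was at 95.8, 147 and 208 CPM with the empty vector, 62.6, 120 and 160 CPM with STAT5B, 37.9, 86.3 and 127 CPM with N642H, 36.6, 72.6 and 130 CPM with Y665F and 62.9, 95.8 and 151 CPM with Y665H. In all 5 groups the library numbered 1 was the lowest and that numbered 3 the highest, and the groups overlapped. Irf1 did not pass without the block, at log2 fold changes of −0.89 (adjusted p = 0.243) for N642H and −0.95 (adjusted p = 0.233) for Y665F. With the block it passed for N642H (−0.97, adjusted p = 4.54e-06), for Y665F (−1.05, adjusted p = 2.45e-06) and for STAT5B (−0.44, adjusted p = 0.0177).

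Irf7, which amplifies the type I interferon response, lies on chromosome 7 from 141262706 to 141266481 on the minus strand. It was at 6.62, 8.61 and 9.63 CPM with the empty vector, 3.11, 4.33 and 6.03 CPM with N642H, 3.34, 3.96 and 6.66 CPM with Y665F and 7.62, 14.3 and 14.6 CPM with Y665H. The N642H libraries lay below the empty-vector libraries, while a Y665F library reached the lowest of them. The log2 fold changes of Irf7 were −0.94 (adjusted p = 0.0504) and −0.87 (adjusted p = 0.076) without the block, and −0.96 (adjusted p = 0.000179) and −0.91 (adjusted p = 0.000376) with it. DESeq2 also called Irf7 lower for N642H (adjusted p = 0.0224) and for Y665F (adjusted p = 0.0343). Irf9, on chromosome 14 from 55603571 to 55610030, was at 48.6, 58.7 and 64.4 CPM with the empty vector, 28.4, 38.1 and 47 CPM with N642H and 27.8, 33.8 and 51.2 CPM with Y665F. Its change was −0.64 with either construct (adjusted p = 0.104 for N642H and 0.117 for Y665F), and with the block −0.66 (adjusted p = 0.00015) and −0.68 (adjusted p = 0.000147). With STAT5B, Irf9 passed with the block alone (−0.36, adjusted p = 0.0365).

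The counts in null cells were read against the whole table. With N642H, 1 of 8 members passed, against 11.6% of all genes, and with Y665F 2 of 8 passed, against 9.58%, with 1 DEG against 2.37% of all genes. With STAT5B, 0 of 8 passed against 1.52% of all genes. At an unadjusted p under 0.05 there was 1 member, beside 14.8% of all genes, and 0 members passed by DESeq2. With Y665H, 0 of 8 passed against 0.0249%, with 0 members at an unadjusted p under 0.05 (5.08% of genes), 0 by DESeq2 and 0 with the block. The median log2 fold change of the 8 members was −0.38 with N642H and −0.37 with Y665F, beside 0.01 and −0.02 over all genes tested.

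When the constructs were compared with WT STAT5B in null cells, 0 of 8 members passed for N642H (0.0845% of all genes passed), Y665F (0.0199%) and Y665H (0.229%), and 0 for Y665F against N642H (0% of genes). At an unadjusted p under 0.05 the edgeR test gave 2, 3, 2 and 0 members, beside 6.07%, 4.97%, 10.6% and 0.9% of all genes, and DESeq2 called 0 in each of the 4 comparisons. With the block, Irf1 and Irf7 were lower than with STAT5B for N642H (log2 fold changes −0.53 and −0.76, adjusted p = 0.0279 and 0.0252) and for Y665F (−0.61 and −0.71, adjusted p = 0.0122 and 0.0489). Y665H against STAT5B gave Irf7 higher (0.74, adjusted p = 0.00804) and Irf8 lower (−1.08, adjusted p = 0.0387) with the block. Between Y665F and N642H, no member passed with the block either.

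In WT cells, where the vector is added to the STAT5 of the cell, Irf8, Irf4 and Irf5 were above their empty-vector levels with N642H and Irf9 was lower with Y665F. No member passed with STAT5B or Y665H in this fit, which has no block. Same-numbered WT libraries also deviated together (29 of 30 pairs with r above 0.1, median 0.649). With the number as a block, Irf8 was higher with STAT5B (adjusted p = 0.00053) and Y665F (adjusted p = 4.17e-08). Irf1 (0.0424) and Irf7 (0.0414) were then lower with STAT5B. With Y665H no member passed with the block either. The share of all genes that passed with the block was not determined, and the other block calls are given at the end. Irf8 was at 55.9, 40.3 and 17.6 CPM with the empty vector, 103, 90.8 and 40.3 CPM with STAT5B, 314, 128 and 93.3 CPM with N642H, 190, 137 and 88.1 CPM with Y665F and 85.9, 54.3 and 23.9 CPM with Y665H. All N642H and Y665F libraries lay above all empty-vector libraries. The N642H change of Irf8 was 2.24 ± 0.54 on the log2 scale (SE, adjusted p = 0.0496), 4.74-fold and a DEG, and the Y665F change was 1.87 (adjusted p = 0.104). The Irf8 call held only without N642H replicate 3 when libraries were left out in turn. It was lost without empty-vector replicate 1 (2.64, adjusted p = 0.0751), 2 (2.27, 0.182) or 3 (1.89, 0.171) and without N642H replicate 1 (1.56, 0.354) or 2 (2.42, 0.0762). For Y665F, DESeq2 called Irf8 higher (adjusted p = 0.0348), and edgeR did so without Y665F replicate 3 (2.08, adjusted p = 0.0408).

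Irf4, on chromosome 13 from 30749226 to 30766976, was at 411, 353 and 506 CPM in WT cells with the empty vector and at 636 to 985 CPM with N642H. With STAT5B it was at 527, 559 and 634 CPM, with Y665F at 793, 622 and 561 CPM and with Y665H at 526, 398 and 499 CPM, so that the N642H, Y665F and STAT5B libraries lay above the empty-vector libraries and those with Y665H overlapped them. The N642H change was 0.86 ± 0.19 (SE, adjusted p = 0.0294), or 1.82-fold, and the Y665F change 0.64 (adjusted p = 0.113, or 0.0429 without Y665F replicate 3). DESeq2 called Irf4 higher with both constructs. The edgeR call of Irf4 with N642H was lost without empty-vector replicate 1 (adjusted p = 0.119) or 2 (0.168) and without N642H replicate 1 (0.211) or 2 (0.0508), at log2 fold changes of 0.64 to 0.94. In null cells the Irf4 libraries spanned 458 to 659 CPM and all groups overlapped the empty vector.

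Irf5, which acts downstream of Toll-like receptors and MYD88, lies on chromosome 6 from 29526625 to 29541871. It rose from 30.1, 35.8 and 34.6 CPM with the empty vector to 51.3, 44.5 and 44.1 CPM with N642H, by 0.49 ± 0.11 on the log2 scale (SE, adjusted p = 0.0347). Only without N642H replicate 3 did this call hold among the 6 fits that leave out a library. In the other fits, without empty-vector replicate 1, 2 or 3 or N642H replicate 1 or 2, Irf5 changed by 0.42 to 0.52 at adjusted p of 0.0823 to 0.218. Irf9 was at 40.6, 43.4 and 36.1 CPM with the empty vector, 29.4, 30.8 and 29.9 CPM with N642H and 27.7, 30.1 and 27.7 CPM with Y665F. It fell by 0.48 ± 0.10 with Y665F (SE, adjusted p = 0.0279) and changed by −0.40 with N642H (adjusted p = 0.0674, or 0.00128 by DESeq2). The Irf9 call was lost without empty-vector replicate 1 (adjusted p = 0.112) or 2 (0.15) or Y665F replicate 1 (0.144) or 2 (0.11).

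Irf1 was at 26.2, 37.8 and 34.1 CPM in WT cells with the empty vector, 18.9, 23.1 and 23.2 CPM with STAT5B, 17.5, 17.4 and 20.7 CPM with N642H and 16.1, 15.2 and 23.7 CPM with Y665F. The libraries of these 3 constructs lay below those with the empty vector, while the change had an adjusted p of 0.0657 for N642H (−0.80) and 0.0612 for Y665F (−0.82). DESeq2 called Irf1 lower with both, at adjusted p of 0.00636 and 0.00586, and without Y665F replicate 3 edgeR did so for Y665F (−1.08, adjusted p = 0.00847). Irf7 was at 10.2, 13.9 and 5.34 CPM with the empty vector and at 3.44, 4.58 and 4.09 CPM with Y665F, a change of −1.26 (adjusted p = 0.08, or 0.0291 without empty-vector replicate 3). DESeq2 called Irf7 lower for N642H (adjusted p = 0.0475) and Y665F (0.00553).

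With N642H, 3 of 8 members passed in WT cells against 1.52% of all genes, with 1 DEG against 0.985%, and with Y665F 1 of 8 against 1.26%. With STAT5B, 0 of 8 passed (0.00975% of all genes), with 4 members at an unadjusted p under 0.05 (2.71% of genes) and 0 by DESeq2. With Y665H, 0 passed (0.00488%), with 1 member at an unadjusted p under 0.05 (0.795% of genes) and 0 by DESeq2. Against WT STAT5B, 0 members passed for N642H (0.00488% of genes), Y665F (0%) and Y665H (0.00488%), and 0 for Y665F against N642H (0%). At an unadjusted p under 0.05 these 4 comparisons gave 3, 1, 0 and 0 members, beside 2.56%, 3.08%, 1.59% and 2.22% of all genes, and DESeq2 called 0 in each.

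**Figure D2:**
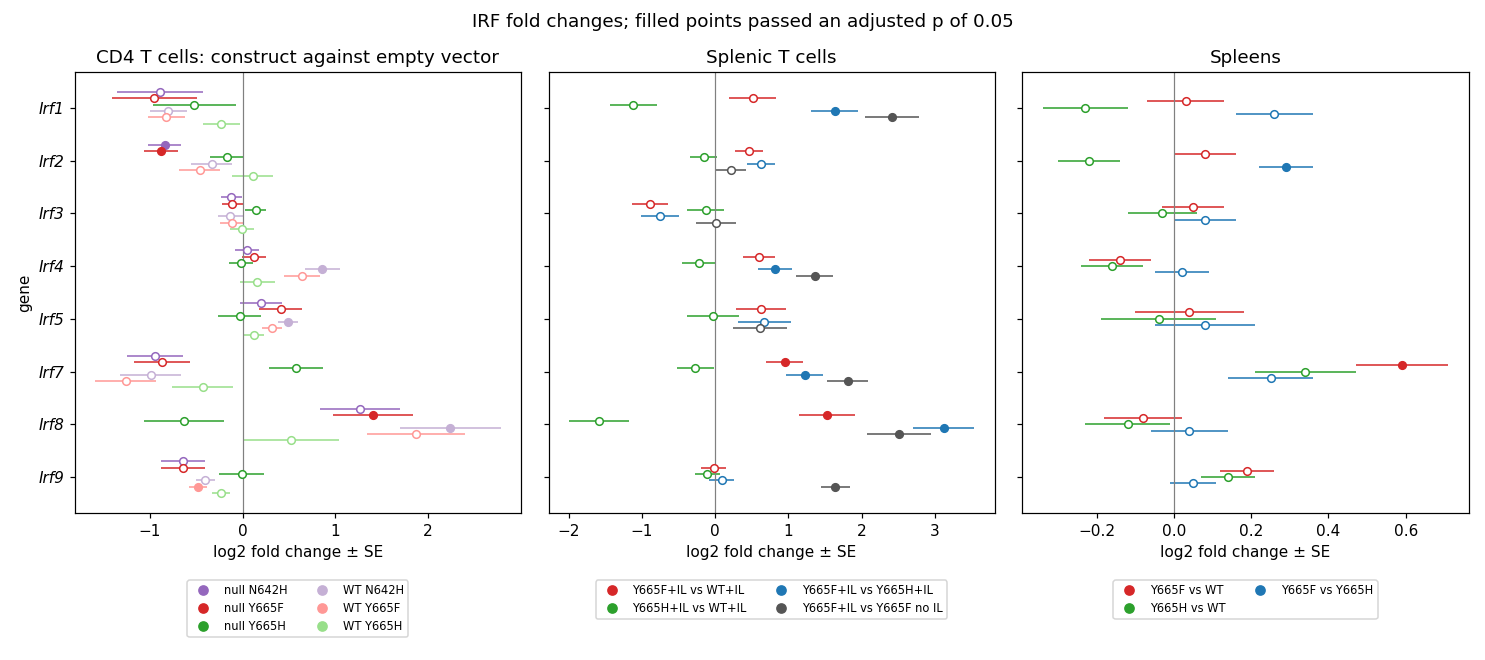
Log2 fold change of each IRF transcript with its SE, for constructs against the empty vector in CD4+ T cells, for splenic T cells and for spleens, with filled points where the adjusted p was under 0.05. Irf8 has its largest changes to the right in CD4+ and splenic T cells, 5 members are filled for Y665F T cells with against without interleukin, and the spleen axis spans less than 1 unit on either side.

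Null and WT cells with the empty vector differed most in Irf1 and Irf2. Irf1 was at 95.8 to 208 CPM in null and at 26.2 to 37.8 CPM in WT libraries, and Irf2 at 133 to 164 against 51.7 to 82 CPM, with no overlap for either gene. In a fit of all 30 libraries and 21975 genes, Irf1 was higher in null cells by 2.20 ± 0.41 (SE, adjusted p = 0.000424), or 4.59-fold, and Irf2 by 1.25 ± 0.21 (adjusted p = 0.000145), or 2.37-fold. Both calls held without each of the 6 libraries in turn. So 2 of 8 members passed, against 13.9% of all genes, and both were DEGs, against 4.68%. Irf8 (1.04, adjusted p = 0.208), Irf4 (0.35, 0.175) and Irf9 (0.52, 0.0917) did not pass, although Irf9 did with the block (0.50, adjusted p = 0.0335). Over the 30 libraries of this fit, 94 of 135 same-numbered pairs had deviations correlated above r = 0.1 (lowest −0.409). The number thus does not pair null with WT libraries throughout, which limits block values across backgrounds. The labels name no culture or sequencing batch, and a batch of the null or WT libraries cannot be told apart from the background.

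With STAT5B returned to null cells, Irf1 was still higher than in WT cells with the empty vector, by 1.80 ± 0.40 (SE, adjusted p = 0.0192). This 1 member of 8 passed against 1.11% of all genes and was a DEG against 0.778%. The Irf1 call was lost without null STAT5B replicate 3 (1.48, adjusted p = 0.177) and without WT empty-vector replicate 1 (1.67, 0.156) or 2 (1.92, 0.0933). Irf2 was at 98.8 to 127 CPM in these null cells and at 51.7 to 82 CPM in the WT cells, a difference of 0.78 (adjusted p = 0.0608, 0.0142 without WT empty-vector replicate 3 and 0.000168 with the block). The limit on block values across backgrounds applies to the last of these.

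No member's response to a construct differed between backgrounds in the test of that difference, the null response minus the WT response. The share of all genes that passed was 0.105% for STAT5B, 0.387% for N642H, 0.478% for Y665F and 0.00455% for Y665H, and 0 of 8 members passed for each. There were 0, 1, 1 and 1 members at an unadjusted p under 0.05, beside 4.91%, 10.3%, 9.32% and 4.17% of all genes, and DESeq2 called 0 in each. The member with the smallest p was Irf4 with N642H, whose response was lower in null cells by 0.76 ± 0.24 on the log2 scale (SE, adjusted p = 0.216 in the edgeR fit).

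In splenic T cells the interleukins and the substitution were both followed. Irf1, Irf4, Irf7, Irf8 and Irf9 were higher in Y665F T cells with IL-2 and IL-7 than in those without, and Irf1, Irf4, Irf7 and Irf8 were higher in Y665F than in Y665H T cells that were both stimulated. Against stimulated WT cells, Irf7 and Irf8 were higher in Y665F cells, and no member passed for Y665H cells. This fit held 15 libraries and 22313 genes. The share of reads assigned to no gene differed between these groups, at 63.9% to 72.6% in WT, 68.7% to 71.9% in Y665H and 67.6% to 84% in Y665F libraries with interleukin and 77.7% to 85.7% without it, and its part in the differences below was not tested.

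Irf8 was at 39.7, 20.3, 61.6 and 59.6 CPM in stimulated Y665F T cells, at 23.9, 12.3, 17.4 and 8.98 CPM in WT cells, at 3.14, 2.92, 9.52 and 3.11 CPM in Y665H cells and at 10.9, 6.87 and 6.03 CPM in Y665F cells without interleukin. The Y665F libraries lay above all Y665H libraries and overlapped the WT libraries at their low end. The log2 fold change of Irf8 was 3.12 ± 0.42 (SE, adjusted p = 9.67e-05), or 8.68-fold, over Y665H cells, 2.51 ± 0.44 (adjusted p = 0.000836) over cells without interleukin and 1.53 ± 0.38 (adjusted p = 0.0356), or 2.88-fold, over WT cells. The Y665H level of Irf8 rested on 11, 6, 137 and 17 reads, and without replicate 3, the library of 137 reads, the difference between Y665F and Y665H cells was 3.87 (adjusted p = 5.03e-05). For Y665H against WT cells the Irf8 change was −1.59 ± 0.41 (adjusted p = 0.176, or 0.0467 by DESeq2), and without Y665H replicate 3, the library at 9.52 CPM, it was −2.34 (adjusted p = 0.0312).

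Markers of B cells, which express IRF8, moved with some of these libraries. Their sum over 10 genes was 22.3, 38.9, 648 and 179 CPM in stimulated Y665F, 116, 17.5, 61.2 and 27 CPM in WT, 27.7 to 47.6 CPM in Y665H and 41.9 to 58 CPM in unstimulated Y665F libraries, with none of the 10 genes at 0 outside Y665H libraries. The Y665F libraries with the highest Irf8 levels, replicates 3 and 4, had the highest sums. Y665F replicate 3 had 2851451 reads on genes, 839 CPM over 8 erythroid and 312 CPM over 9 neutrophil markers and the lowest sum of the 11 T cell markers, 1390 CPM of a range of 1390 to 4390. The sums over all 15 libraries were 33.7 to 405 CPM for monocyte and macrophage, 63.8 to 103 CPM for dendritic cell and 73.4 to 231 CPM for plasma cell markers. Neutrophil and plasma cell sums also moved with the groups. The neutrophil sum was 76.1 to 312 CPM in stimulated Y665F, 6.87 to 17.7 in WT, 24 to 78.8 in Y665H and 60.8 to 200 in unstimulated Y665F libraries, and 5 of its 9 markers were higher in Y665F than in WT cells. The plasma cell sum was 187 to 231, 98.1 to 146, 73.4 to 108 and 78.7 to 92.4 CPM in the same order. The monocyte and macrophage sum overlapped between groups, at 125 to 291, 148 to 171, 33.7 to 405 and 125 to 357 CPM. When the 3 libraries above 100 CPM of B cell markers were left out, Irf8 differed between Y665F and Y665H cells by 2.52 (adjusted p = 0.00135) and between Y665F and WT cells by 1.22 (adjusted p = 0.343). When the 3 libraries of the lowest depth (Y665H replicates 1 and 2 and Y665F replicate 3) were left out, these Irf8 values were 2.64 (adjusted p = 0.00192) and 1.39 (adjusted p = 0.0394). The Irf8 call against WT was also lost without WT replicate 2 (1.44, adjusted p = 0.11), 3 (1.59, 0.0536) or 4 (1.34, 0.107) or Y665F replicate 3 (1.35, 0.101) or 4 (1.36, 0.155). The part of other cells in the differences of Irf8, Irf1, Irf4, Irf7 and Irf9 was not tested beyond this.

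**Figure D3:**
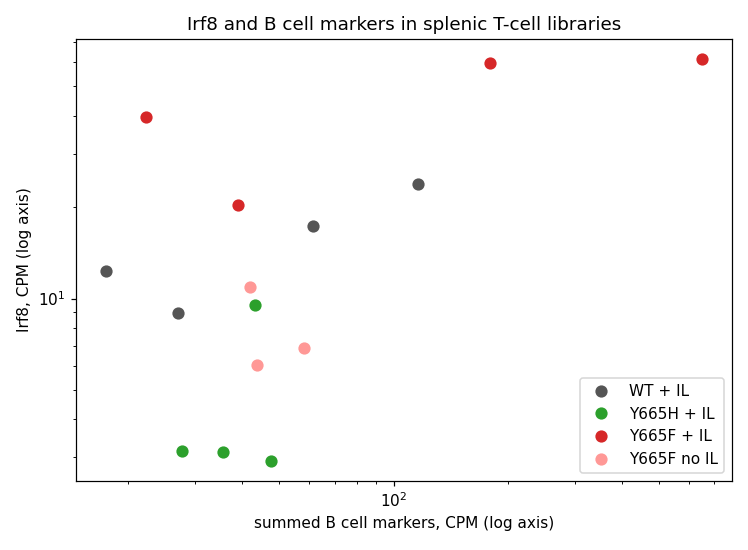
Irf8 level against the summed level of 10 B cell markers in the 15 splenic T cell libraries, both in CPM on log axes, with 1 point per library and a colour per group. Every stimulated Y665F point lies above every Y665H point, and 2 of the 4 Y665F libraries and 1 WT library lie above 100 CPM of markers.

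Irf1 was at 956, 637, 560 and 1070 CPM in stimulated Y665F T cells, 293, 691, 1040 and 238 CPM in WT cells, 260, 251, 272 and 261 CPM in Y665H cells and 158, 149 and 147 CPM without interleukin. The WT libraries were split, with replicates 2 and 3 at Y665F levels and replicates 1 and 4 near Y665H levels. Irf1 was higher in Y665F than in Y665H cells by 1.63 ± 0.32 (SE, adjusted p = 0.00315) and than in cells without interleukin by 2.41 ± 0.37 (adjusted p = 0.000227). The first of these calls held without the libraries above the B cell marker limit (1.61, adjusted p = 0.00617) and without those of the lowest depth (1.79, 0.0149). Y665H cells differed from WT cells in Irf1 by −1.12 ± 0.32 (adjusted p = 0.273), and by −1.33 (adjusted p = 0.0348) without WT replicate 1 and Y665F replicates 3 and 4.

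Irf7 was at 66.9, 29.9, 54.9 and 65.9 CPM in stimulated Y665F T cells, 22.2, 25.8, 41.1 and 23.2 CPM in WT cells, 20, 23.8, 27.6 and 21.7 CPM in Y665H cells and 17.6, 14.7 and 14.5 CPM without interleukin. All Y665F libraries lay above the Y665H libraries, and 1 of them lay within the WT range. The changes were 0.95 ± 0.25 (SE, adjusted p = 0.0466) over WT, 1.22 ± 0.25 (adjusted p = 0.0047) over Y665H and 1.81 ± 0.28 (adjusted p = 0.000277) over unstimulated cells. The Irf7 call against WT held without WT replicate 3 or Y665F replicate 2 and was lost without WT replicate 1 (0.85, adjusted p = 0.0679), 2 (0.92, 0.137) or 4 (0.87, 0.122) or Y665F replicate 1 (0.84, 0.0669), 3 (0.95, 0.0919) or 4 (0.84, 0.188). Without the libraries above the B cell marker limit Irf7 did not pass against WT (0.69, adjusted p = 0.498) or Y665H (1.05, 0.0511), nor without those of the lowest depth (0.98, 0.061 and 1.18, 0.0599).

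Irf4 was lower in level here than in the activated CD4+ T cells, at 40.2, 35.3, 32.3 and 48.9 CPM in stimulated Y665F, 31.3, 27.6, 23.9 and 21.1 CPM in WT, 15.4, 23.3, 30.7 and 18.6 CPM in Y665H and 13.7, 15.8 and 16.2 CPM in unstimulated Y665F cells. Every stimulated Y665F library lay above every other library. Irf4 was higher by 1.36 ± 0.25 (SE, adjusted p = 0.00155) than without interleukin and by 0.82 ± 0.23 (adjusted p = 0.034) than in Y665H cells, with a difference of 0.60 (adjusted p = 0.148, or 0.00889 by DESeq2) from WT cells. The Irf4 call against Y665H was lost without Y665F replicate 1 (adjusted p = 0.0542) or 4 (0.129), without Y665H replicate 1 (0.126), 2 (0.0573) or 4 (0.144), without the libraries above the B cell marker limit (0.13) and without those of the lowest depth (0.217), at log2 values of 0.70 to 0.85.

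Irf9 differed between cells with and without interleukin, while the stimulated groups overlapped. It was at 175, 140, 146 and 155 CPM in stimulated Y665F, 168, 159, 184 and 114 CPM in WT and 143, 129, 166 and 140 CPM in Y665H cells, and at 44.5, 55.6 and 48.3 CPM without interleukin. The change with interleukin was 1.64 ± 0.20 (SE, adjusted p = 1.3e-05), or 3.11-fold. Irf3, a constitutively present factor that is activated by phosphorylation and lies on chromosome 7 from 44997648 to 45002848, was at 50.1, 45.8, 24.1 and 33.7 CPM in stimulated Y665F and 57.4, 69.1, 100 and 60.5 CPM in WT cells, a change of −0.89 (adjusted p = 0.0692, 0.0225 by DESeq2, 0.0424 without WT replicate 1 and 0.0373 without Y665F replicate 1). Against Y665H cells the Irf3 change was −0.76 (adjusted p = 0.0816, 0.0254 by DESeq2 and 0.038 without Y665H replicate 2). Irf2 spanned 88.8 to 176 CPM and Irf5 2.75 to 16.4 CPM over all 15 libraries, and neither passed in the edgeR test in any of the 4 comparisons. DESeq2 called Irf2 higher in Y665F than in WT cells (0.62, adjusted p = 0.0353) and than in Y665H cells (0.69, 0.0133), and edgeR did so without WT replicate 1 (0.67, 0.0403) and without Y665H replicate 3 (0.70, 0.0461).

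**Figure D4:**
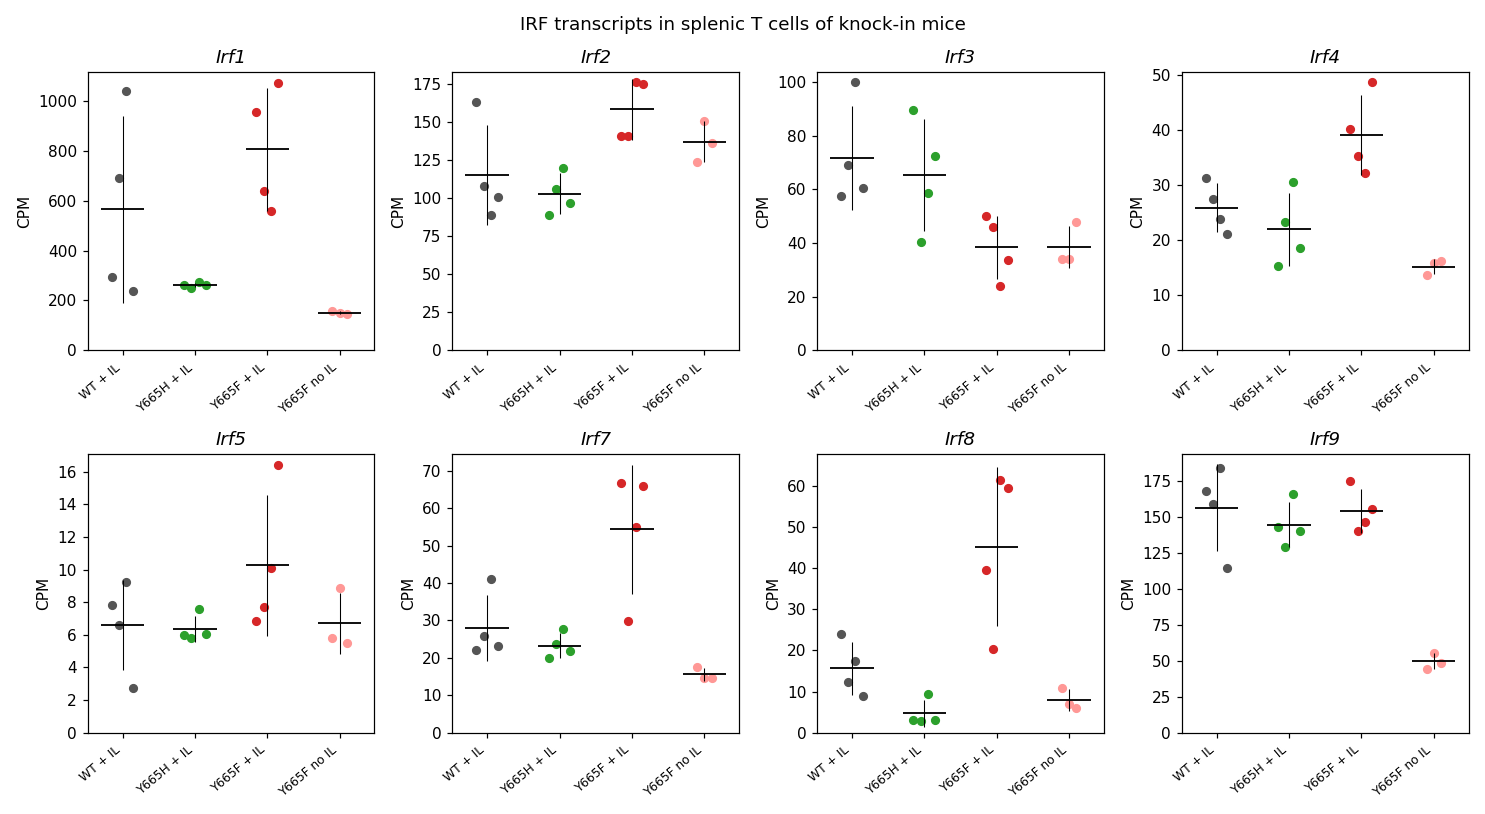
Levels of the 8 IRF transcripts in splenic T cells, in CPM on a linear axis from 0, with 1 point per library, a line at the mean and a bar of 1 SD (n = 4 per stimulated group, n = 3 without interleukin). Irf1, Irf4, Irf7 and Irf8 are highest in stimulated Y665F cells and Irf9 is lowest without interleukin.

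Of the 8 members, 5 passed for Y665F T cells with against without interleukin, all as DEGs, beside 3.85% of all genes passing and 2.97% as DEGs, and these 5 calls held without each library in turn. Against Y665H cells 4 of 8 passed (6.18% of genes) and 3 were DEGs (4.78%), and against WT cells 2 of 8 passed (1.87%) with 1 DEG (1.53%). For Y665H against WT cells 0 of 8 passed (0.0762% of genes), with 2 members at an unadjusted p under 0.05 (8.88% of genes) and 1 by DESeq2. As a median over the 8 members, the log2 fold change was 1.5 with interleukin and 0.75 over Y665H cells, beside −0.13 and 0.13 over all genes tested. The 3 comparisons of stimulated Y665F cells share those 4 libraries.

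In spleens of mice that were not stimulated, the family varied little. Y665F spleens had more Irf7 than WT spleens and more Irf2 than Y665H spleens, and neither was a DEG. Irf7 was at 64.5, 77.2, 61.3, 55.6, 69.3, 69 and 68.5 CPM in Y665F, at 41, 35.9, 50.5 and 48.8 CPM in WT and at 45.4, 69.8, 61.6, 53.3 and 48.9 CPM in Y665H spleens. All 7 Y665F libraries lay above all 4 WT libraries, and the Y665H libraries overlapped both. Irf7 rose by 0.59 ± 0.12 on the log2 scale (SE, adjusted p = 0.0045), or 1.51-fold, and the call held without each of the 11 libraries. The Irf7 difference of Y665H from WT was 0.34 ± 0.13 (adjusted p = 0.068), which passed by DESeq2 (0.0414), without WT replicate 3 (0.41, 0.039) and without Y665H replicate 1 (0.44, 0.0144).

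Irf2 was at 126, 138, 136, 130, 142, 133 and 146 CPM in Y665F, at 126, 107, 97.3, 108 and 116 CPM in Y665H and at 129, 149, 112 and 125 CPM in WT spleens. The Y665F and Y665H libraries met at 126 CPM. Between Y665F and Y665H spleens, Irf2 was higher in the former by 0.29 ± 0.07 (SE, adjusted p = 0.0067), a call that held without each of the 12 libraries in turn. Y665H differed from WT spleens in Irf2 by −0.22 (adjusted p = 0.0744), or −0.29 without WT replicate 3 (0.0184) and −0.23 without Y665H replicate 1 (0.0392). Irf1 differed between Y665F and Y665H spleens by 0.26 (adjusted p = 0.0544), and passed without Y665F replicate 2 (0.0227) or 3 (0.0176) or Y665H replicate 1 (0.0159). This Irf1 difference also passed in 6 of the 8 alternatives that keep every library, DESeq2 among them. Irf9 was at 128 to 145 CPM in Y665F and at 107 to 126 CPM in WT spleens, without overlap, a difference of 0.19 (adjusted p = 0.0725, 0.0359 by DESeq2 and 0.0484 without WT replicate 3). The Irf9 difference of Y665H from WT was 0.14 (adjusted p = 0.18), or 0.22 without Y665H replicate 1 (0.0269). Irf8 spanned 198 to 278 CPM, Irf4 138 to 189 CPM and Irf5 85.6 to 144 CPM, with all groups overlapping.

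Cell markers differed between these spleens. The sum of T cell markers was 996 to 1340 CPM in Y665F, 772 to 901 CPM in WT and 508 to 756 CPM in Y665H spleens, and that of B cell markers was 2940 to 3670, 3900 to 4480 and 2970 to 4230 CPM. Y665H replicate 1 had 138 CPM of neutrophil and 323 CPM of erythroid markers, while the other 4 Y665H libraries had 403 to 1570 and 1720 to 2400 CPM. In Y665F, WT and Y665H spleens in this order, the neutrophil sum was 407 to 982, 223 to 341 and 138 to 1570 CPM, the dendritic cell sum 444 to 491, 511 to 539 and 321 to 452 CPM, the plasma cell sum 914 to 1340, 1030 to 1320 and 1370 to 2380 CPM and the erythroid sum 217 to 703, 505 to 960 and 323 to 2400 CPM. The monocyte and macrophage sum was 1920 to 2860 CPM over all spleens. Of the 11 T cell markers, 7 were higher in Y665F than in WT spleens and 11 than in Y665H spleens, and 5 of 9 neutrophil markers were higher in Y665F than in WT spleens. The part of cell makeup in the Irf7 and Irf2 differences was not tested. For Y665F against WT, 1 of 8 members passed beside 12.2% of all genes, for Y665H against WT 0 of 8 beside 19.8% (3 members at an unadjusted p under 0.05, beside 32.9% of genes, and 1 by DESeq2), and for Y665F against Y665H 1 of 8 beside 25.8%.

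**Figure D5:**
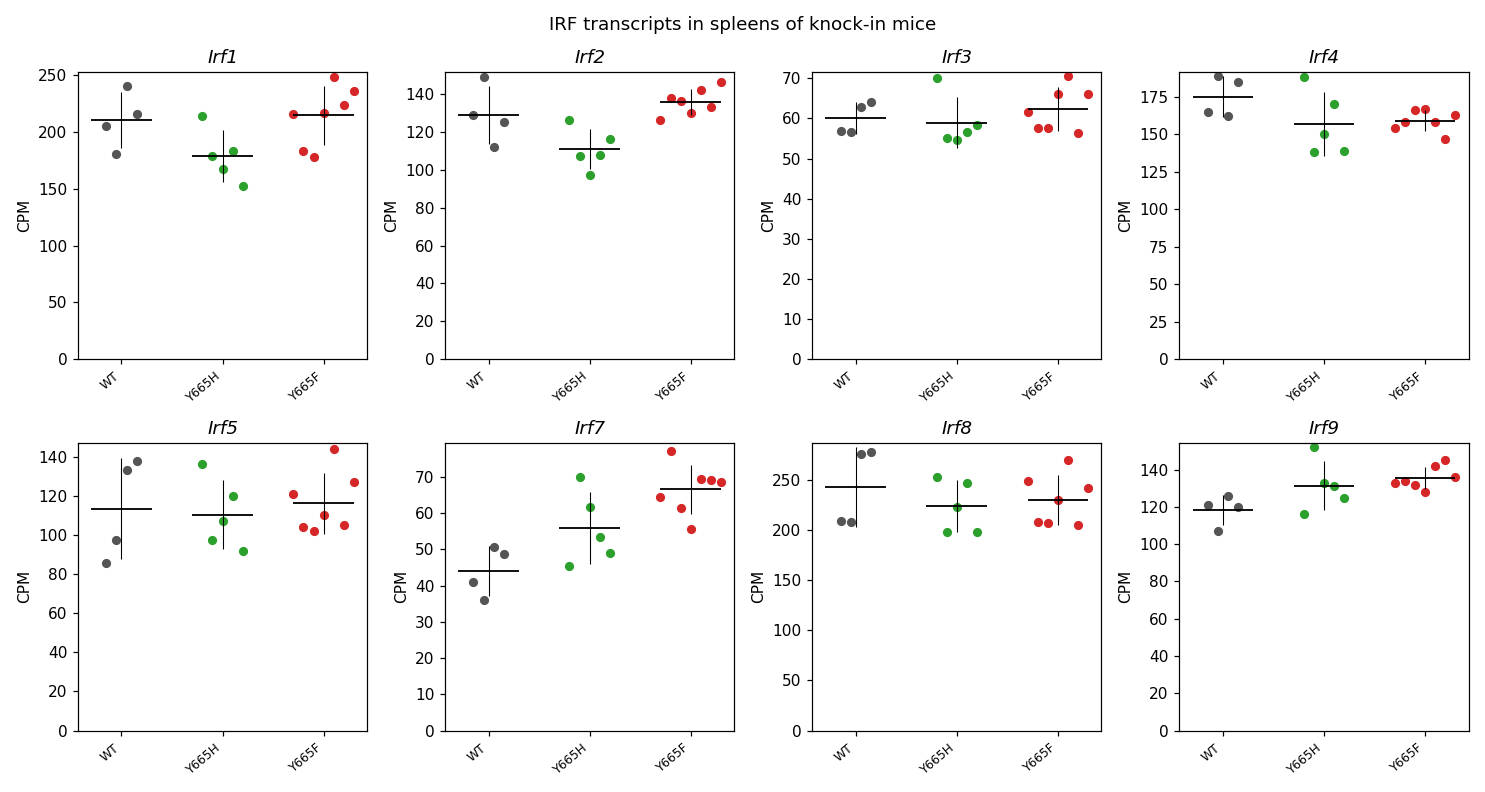
Levels of the 8 IRF transcripts in spleens, in CPM on a linear axis from 0, with 1 point per library, a line at the mean and a bar of 1 SD (4 WT, 5 Y665H and 7 Y665F libraries). The 7 Y665F libraries of Irf7 lie above the 4 WT libraries, and so do those of Irf9.

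The genes around the IRFs were counted from 4 lists, of an interferon signal chain (11 genes), of sensors, adaptors and kinases that activate IRFs (16), of IRF partners and corepressors (11) and of interferon- and IRF-induced targets (19). In Y665F T cells with against without interleukin, where 3.85% of all genes passed, 15 of 19 targets were higher and 0 lower. The median log2 fold change of the targets was 2.12 beside −0.13 over all genes. Among the targets, Gbp2, a guanylate-binding protein, rose by 4.01 ± 0.41 (SE) and Cxcl10, a T cell chemokine, by 3.44 ± 0.77. Of the signal chain 3 of 11 were higher, with Ifng at 2.15 ± 0.41, and 1 lower. Of the sensors 2 of 16 were higher, Tmem173 by 0.95 and Ddx58 by 0.84, and of the partners 0 of 11 passed.

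Against Y665H T cells, where 6.18% of all genes passed, 8 of 19 targets were higher in Y665F cells (median 0.84 beside 0.13 over all genes). They included Rsad2 by 3.55 ± 0.98 and Ifit3 by 2.54 ± 0.35. Ifng rose by 3.31 ± 0.42 and Stat2 by 1.14 ± 0.24 in the signal chain, where 1 gene was lower. Jun rose by 1.65 ± 0.39 and Irf2bpl, a relative of the IRF2-binding proteins, was lower by 1.41 ± 0.24 on the log2 scale, 1 higher and 2 lower partners in all, and Ikbke was the only sensor or kinase that passed, at −0.91 ± 0.23. Against WT cells, where 1.87% of all genes passed, 4 of 19 targets were higher (median 0.81 beside 0.07). Rsad2 was at 4.35 ± 0.99 and Ifit3 at 2.02 ± 0.33. Of the signal chain 2 of 11 were higher, Ifng by 2.26 ± 0.36 and Stat2 by 1.1 ± 0.24, and 0 lower. The median of that list was −0.33 beside 0.07 over all genes. Of the sensors 1 of 16 was lower, Ikbke at −0.95 ± 0.23, and of the partners 1 of 11, Irf2bpl at −0.95 ± 0.24, with 0 higher in either list. For Y665H against WT cells, no gene of the 4 lists passed, beside 0.0762% of all genes.

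In null CD4+ T cells 2 of 19 targets were higher with N642H and with Y665F than with the empty vector and 0 were lower, where 11.6% and 9.58% of all genes passed. Of the signal chain 0 were higher and 2 of 10 tested lower with either construct, of the 16 sensors 2 were higher with either and 2 lower with N642H, and of the 11 partners 2 were higher with either. The targets were Socs1, a feedback inhibitor of JAKs (2.78 ± 0.30 and 2.64 ± 0.30 on the log2 scale), and Ifit3 (2.27 ± 0.41 and 1.89 ± 0.41), while the list medians were −0.22 and −0.24 beside 0.01 and −0.02 over all genes. Socs1 was also higher with STAT5B (2.16 ± 0.30), and lower with Y665H than with STAT5B by 1.43 ± 0.29. Batf3, which pairs with IRF4 and IRF8 on DNA, rose by 4.03 ± 0.67 with N642H and 3.18 ± 0.66 with Y665F. The receptor chain Ifnar1 fell by 0.52 and 0.53 and Jak1 by 0.44 and 0.39 with these constructs. In WT cells Ddx58, the RNA sensor RIG-I, was lower with N642H (−1.06 ± 0.16) and with Y665F (−1.02 ± 0.16), and 0 of 19 targets passed with any construct. The share of all genes that passed there was 1.52% with N642H, 1.26% with Y665F, 0.00975% with STAT5B and 0.00488% with Y665H.

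Null cells with the empty vector had higher Ifng (3.40 ± 0.74, SE) than WT cells, beside lower Socs1 (−3.17 ± 0.36), Ifit3 (−2.46 ± 0.49) and Batf3 (−3.20 ± 0.85). Of the lists, 3 of 11 signal chain genes were higher and 1 lower, 1 of 19 targets was higher and 3 lower, 2 of 16 sensors were higher and 3 lower, and 1 partner each was higher and lower. Over all genes, 13.9% passed in this comparison. The list medians were 0.31 for the signal chain, 0.34 for the targets, 0 for the sensors and −0.28 for the partners, beside −0.12 over all genes. The responses of Socs1 and Ifit3 differed between backgrounds in the test of that difference, for N642H by 2.63 ± 0.47 and 3.30 ± 0.67 and for Y665F by 2.61 ± 0.47 and 2.97 ± 0.67, higher in null cells in each case. So did those of 2 of 16 sensors with either construct, with Ddx58 at 1.28 ± 0.25 and 1.14 ± 0.25. Over all genes, 0.387% and 0.478% passed in these tests.

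In spleens, the lists were read beside the 12.2%, 19.8% and 25.8% of all genes that passed. In Y665F against WT spleens, 4 of 19 targets were higher, with Socs1 at 0.95 ± 0.25 and Ifit1 at 0.57 ± 0.18, 1 sensor was higher and 1 lower (Ikbke, an IRF3 and IRF7 kinase, 0.51 ± 0.13 and Tlr3 −0.65 ± 0.10), 1 partner was higher and 0 of 10 signal chain genes passed. In Y665H against WT spleens 2 targets were higher, Isg15 (1.66 ± 0.32) and Rsad2 (1.21 ± 0.37), and 3 lower. Here 4 of 10 signal chain genes were lower and 0 higher, and of the 16 sensors 1 was higher, Mavs (0.47 ± 0.11), and 4 lower, with Ddx58 at −0.39 ± 0.08. Higher in Y665F than in Y665H spleens were 5 of 10 signal chain genes, with Ifnar1 at 0.34 ± 0.06, 8 of 16 sensors, with Ikbke at 0.69 ± 0.12 and Ddx58 at 0.48 ± 0.07, 3 of 11 partners, with Nfatc2 at 0.55 ± 0.09, and 6 of 19 targets, with Socs1 at 1.07 ± 0.23, while 1 sensor and 2 targets were lower, Rsad2 by 1.47 ± 0.31 on the log2 scale. The T cell markers that moved with these groups were given above, and their part in the list counts was not tested.

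The genes whose group means over the 10 CD4 groups were most like those of a member were ranked by Pearson r of log2(CPM + 1), among the 9716 genes that averaged 5 CPM or more over these groups. These are correlations over 10 points that share vectors and background, and are given as a description. Closest to Irf1 were Gbp6 (r = 0.996), Irgm1 (0.992) and Tspan13 (0.992), the first a guanylate-binding protein and the second an immunity-related GTPase. Closest to Irf8 were Snhg6 (0.984), Cdkn1a (0.98) and Bax (0.97), and to Irf9 Ms4a6c (0.997), Fyco1 (0.996) and Zfp950 (0.991). Irf2 was closest to Gcnt1 (0.995), and Irf3, Irf4, Irf5 and Irf7 reached at most 0.949 (Chchd7), 0.97 (Sepn1), 0.96 (Mphosph6) and 0.969 (4930431P03Rik). Among the members themselves, Irf1 and Irf2 had r = 0.96 and Irf2 and Irf9 0.95, whereas Irf8 had r = −0.87 with Irf7, −0.81 with Irf3 and −0.04 with Irf1.

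Several members overlap another annotated gene on GRCm38, namely Irf1 with Gm17334, Irf2 with the antisense Gm45479, Irf3 with Bcl2l12, Irf5 with Tnpo3, Irf7 with Phrf1, Irf8 with the readthrough gene Gm20388 and Irf9 with Rnf31. How reads in these overlaps were assigned depends on the strand setting of the counting, which is not given in the sources used here. Irf4 has no overlapping gene.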

How the data were processed

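The authors trimmed the reads with Trimmomatic 0.36, aligned them to mm10 with STAR and counted them per gene with HTSeq 0.9.1, and deposited these counts without normalization. FastQC 0.11.9, SAMtools 1.9 and Picard 2.9.2 are also named in the submitters' processing notes. Each of the 61 tables held 24421 genes and 5 HTSeq summary lines of unassigned reads. The latter took 28.4% to 36.9% of reads in CD4+ T cells, 63.9% to 85.7% in splenic T cells and 62.8% to 69.4% in spleens and entered neither library sizes nor tests. A protocol entry of the labels names mammary tissue, against the titles and source entries used here.

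The analysis used R 4.3.3, edgeR 4.0.16, limma 3.58.1 and DESeq2 1.42.0. Separate fits were made of null CD4 (20113 genes), WT CD4 (20509), both (21975), splenic T cell (22313) and spleen libraries (19418), with genes of at least 10 reads over the fit, TMM factors and glmQLFit. Contrasts were tested with glmQLFTest, two-sided, with Benjamini-Hochberg adjustment over all genes of the fit. The SE is the size of the log2 fold change over the square root of F. Levels are compared between genes as CPM per kilobase of merged exons of GRCm38. Marker and pathway lists were described by counts and sums, without a set test.

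The members and lists were chosen with earlier results of these data known. Text names all members, per list and comparison up to 2 genes with the largest change among those that passed, and per member up to 3 genes of most similar pattern. One gene that this rule names is not reported here. Beyond this rule, the genes whose calls changed under an alternative were named after their values were seen.

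The study names no pairing. Same-numbered libraries had correlated deviations from their group means (r above 0.1) in 30 of 30 pairs of null libraries (median r 0.465), so the replicate number was used as a block beside those results. In WT libraries 29 of 30 pairs did (median r 0.649), and part of the WT block calls stand beside the WT results. The alternatives were DESeq2, RLE size factors, library totals, filterByExpr, no filter on low counts, no fold minimum, a RUVr factor, the groups compared alone, the block and leaving out each library. Leaving out splenic T cell libraries above 100 CPM of B cell markers or the 3 of the lowest depth was chosen after seeing the data. The pipeline was tested on simulated data. In the shallowest splenic T cell library, replicate 2 of the stimulated Y665H cells, Irf8 rested on 6 reads and Irf5 on 12.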

Additional observations from a re-analysis of the deposited data

Results flagged for a closer look

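Of 48 groups of 4 to 10 libraries tested for a library far from the others by Dixon's criterion, 3 held one, and chance flags about 1 in 20 groups. Irf8 was at 9.52 CPM in replicate 3 of the stimulated Y665H T cells, while the other 3 libraries were at 2.92 to 3.14 CPM. The same library stood apart for Irf5, at 7.58 CPM against 5.83 to 6.03 CPM. In Y665H spleens, Irf3 was at 70.2 CPM in replicate 1 against 54.6 to 58.3 CPM in the others, and that library also had the lowest neutrophil marker sum of its group, 138 CPM.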

How the results depend on the processing

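The counts below are pairs of a member and a comparison called as DEGs. Against the empty vector, null cells gave 1 pair, and 0 with DESeq2, RLE size factors, filterByExpr, library totals or the groups compared alone, 2 with a RUVr factor or no filter on low counts and 3 without a fold minimum. WT cells also gave 1, and 0 with RLE size factors or filterByExpr, 3 with DESeq2 or a RUVr factor and 4 without a fold minimum. Against STAT5B, null cells gave 0 pairs and 1 with a RUVr factor. Spleens gave 0 pairs and 2 without a fold minimum. The 9 pairs of splenic T cells, the 3 of null against WT cells and the 0 of the response differences stayed within 1.5 times under these alternatives. Leaving out each library in turn gave 0 to 2 pairs in null and 0 to 3 in WT cells against the empty vector, 2 to 4 for null against WT cells, 8 to 11 in splenic T cells and 0 to 0 elsewhere. Of the single values under an alternative, 902 kept their side of the threshold, 130 passed newly, 69 no longer passed and 0 turned their direction after being called. The causes were not tested.

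With the replicate number as a block, null cells gave 3 pairs against the empty vector and 1 against STAT5B, and WT cells 4 and 1. The share of all genes that passed with the block was not determined. Members called with the block are therefore not read as a result about the family. In WT cells 29 of 30 pairs of same-numbered libraries had r above 0.1 (median 0.649, lowest 0.0156), beside a median of 0.465 in null cells. In splenic T cells 5 of 21 pairs had r above 0.1 and in spleens 4 of 13. In splenic T cells and spleens the libraries thus share only a number. The block ended the calls of Irf7 in Y665F against WT spleens (adjusted p = 0.0624), of Irf7 (0.102) and Irf8 (0.0517) in Y665F against WT T cells and of Irf4 in Y665F against Y665H T cells (0.0781). Against the empty vector in WT CD4+ T cells, the block kept Irf8, Irf4 and Irf5 with N642H and Irf9 with Y665F. It also added calls there. With STAT5B, Irf8 was higher (1.09, adjusted p = 0.00053) and Irf1 (−0.58, 0.0424) and Irf7 (−0.74, 0.0414) lower. With N642H, Irf1 (−0.80, 0.000556), Irf7 (−0.95, 0.00129) and Irf9 (−0.39, 0.00763) were lower. With Y665F, Irf8 (1.96, 4.17e-08), Irf4 (0.64, 0.00368) and Irf5 (0.32, 0.0493) were higher and Irf1 (−0.83, 0.000429), Irf2 (−0.46, 0.00514) and Irf7 (−1.17, 0.000195) lower. Against STAT5B, Irf8 was higher with N642H (1.13, 0.000256) and Y665F (0.87, 0.00665). Depth limits low genes most in splenic T cells, where a library held as few as 2017012 reads on genes.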
